A study of Sus scrofa with 22 samples.

Results

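Genes that move cholesterol out of cells were followed across 4 conditions in the mononuclear blood cells of Mini Pigs, a mixture of mainly lymphocytes and monocytes. The 6 genes, taken by symbol from 6765 named on the array, were NR1H3 (Entrez Gene 397553), ABCA1 (100152112), LPCAT3 (100627653), APOE (397576), LIPA (100142668) and NPC2 (397410). Every probe set of the porcine array annotated to exactly 1 of these symbols was included, which gave 11 of the 23999 probe sets that are not array controls. All 11 had a log2 intensity above 5 on every array and were among the 17240 probe sets tested.

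Cholesterol that reaches the lysosome as an ester is freed by lysosomal acid lipase, encoded by LIPA, and leaves the organelle with the help of NPC2, a small protein that carries cholesterol inside the lysosome. Oxidised cholesterol activates the liver X receptors, of which NR1H3 encodes LXR alpha, and these raise the transcription of ABCA1, the membrane pump that loads cholesterol onto apolipoproteins, of APOE, a cholesterol acceptor, and of LPCAT3, which builds polyunsaturated phospholipids into membranes. In blood mononuclear cells this route is best known from monocytes and the macrophages they become.

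The study hybridised 22 arrays, 1 per blood sample, from 20 pigs. At time 0 there were 5 females and 5 males, all control animals on the normal chow (5% beef tallow) that served as the basal group. At 9 months there were 2 females and 2 males on each of 3 diets: a control chow with 5% beef tallow, a high-fat chow with 20% beef tallow, and the same high-fat chow plus the plant polyphenol resveratrol, given daily at 8 mg/kg body weight. Pigs 8 and 25 were sampled at time 0 and again on the control chow at 9 months, and every other array came from a different animal. The pigs' ages were not given in the labels used here.

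Monocyte and T cell genes were both well detected, with CD14 between 7.83 and 9.90 and CD3E between 11.25 and 12.28 on the log2 scale, while the granulocyte gene S100A8 was above 5 on 10 of the 22 arrays. Red cell and platelet RNA was detected too. The red cell gene HBB lay between 8.09 and 9.59, above 5 on all 22 arrays. The platelet gene PPBP lay between 4.97 and 11.02, above 5 on 21. The poly-A spike-in controls divided the arrays into 4 sets, A and B at time 0 (2 and 8 arrays) and C and D at 9 months (7 and 5 arrays). Set C held 3 control, 1 high-fat and 3 resveratrol arrays, and set D held 1, 3 and 1. The sets come from no label: within each time the arrays were split at the largest gap in mean spike-in level. By that rule no set could span the times. Mean log2 levels were 9.03 to 9.06 in A, 7.49 to 7.78 in B, 8.28 to 8.92 in C and 9.86 to 10.53 in D. Age, time and any difference in array handling between the times cannot be told apart. These are bulk RNA values, in which fewer cells of a type and less RNA per cell cannot be told apart.

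Several genes had more than 1 probe set, and these did not always move together. Once the 8 means of condition and sex were subtracted, the probe sets of LPCAT3 correlated at r = 0.57 and those of LIPA at r = 0.54 over the 22 arrays. The pair for APOE gave r = -0.08, and the brightest NPC2 probe set gave r = -0.26 and r = -0.34 with the others, which correlated with each other at r = 0.48. Where a gene is named without a probe set, the value is that of its brightest one.

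**Figure D1:**
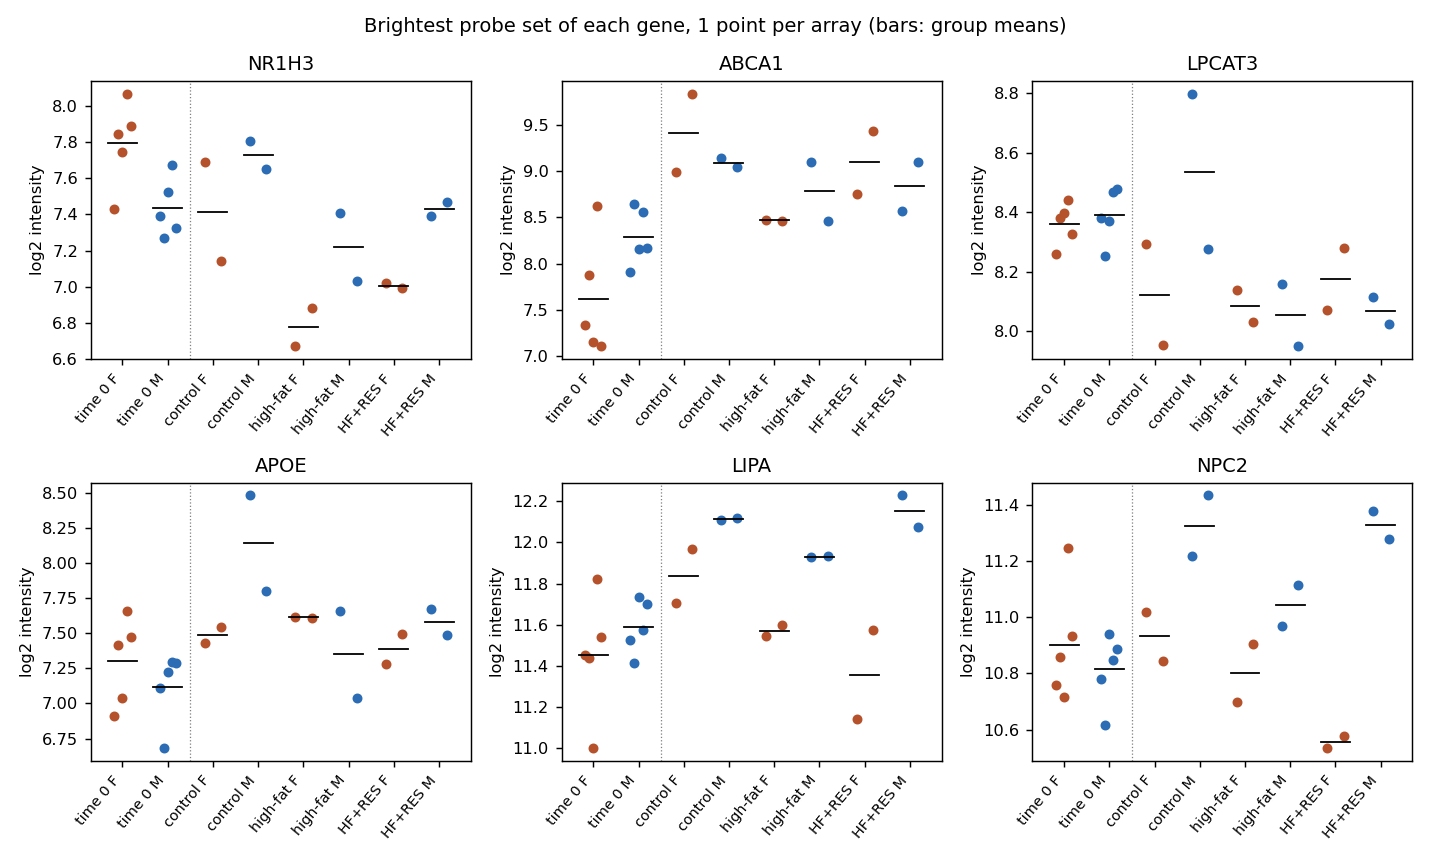
Log2 intensity of the brightest probe set of each gene (vertical axis, a separate scale in each panel) on every array, by condition and sex (horizontal axis; F female in brown, M male in blue; HF+RES is high-fat plus resveratrol). Bars are group means; the dotted line parts time 0 from 9 months. The 4 control arrays of 9 months lie above all 10 time 0 arrays for ABCA1.

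The first question was how the genes stood after 9 months on the control chow, set against time 0. ABCA1 was higher at 9 months by 2.47-fold, and the acceptor APOE and the lipase LIPA were higher by 1.52-fold and 1.37-fold. With limma and Benjamini-Hochberg adjustment over all probe sets, 3 of 11 member probe sets passed, all of them higher, where 35% of all probe sets passed in either direction and 15.8% passed as higher. Values are log2 intensities, differences are differences of group mean log2 values adjusted for sex, and a probe set passed at an adjusted p below 0.05.

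ABCA1 ranged from 7.10 through a median of 8.03 to 8.65 at time 0. On the control chow it was 9.84 and 8.99 in females 8 and 18, and 9.15 and 9.05 in males 16 and 25. The groups did not overlap, which held for 6.54% of all probe sets in this direction. The difference was 1.30 (SE 0.26, adjusted p = 0.000752), more than the spread within groups. Each pig sampled at both times showed it: pig 8 went from 7.87 to 9.84 and pig 25 from 8.17 to 9.05.

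The other genes that rose did so less. APOE ranged from 6.68 through 7.26 to 7.66 at time 0 and was 7.55, 7.43, 8.48 and 7.80 in pigs 8, 18, 16 and 25 at 9 months, a difference of 0.60 (SE 0.18, adjusted p = 0.0117). Male 16 stood highest, and without it the difference was 0.37 (adjusted p = 0.0994). The second APOE probe set differed by 0.22 (adjusted p = 0.0564).

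LIPA ranged from 11.00 through 11.53 to 11.82 at time 0 and was 11.97, 11.70, 12.11 and 12.12 in pigs 8, 18, 16 and 25, a difference of 0.46 (SE 0.13, adjusted p = 0.00964). Its second probe set went the other way, at -0.38 (SE 0.21, adjusted p = 0.165), which with array weights became -0.73 and passed (adjusted p = 0.00177), and the mean of both was 0.04. A rise of LIPA was seen by 1 of its 2 probe sets. NPC2 was 0.27 higher (SE 0.13, adjusted p = 0.113), without passing. NR1H3 differed by -0.04 and the LPCAT3 probe sets by -0.05 and -0.04.

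Cell type markers moved with time as well. Of 13 measured monocyte markers 6 were higher and 0 lower (median 0.33), and of 11 T cell markers 7 were lower (median -0.53). All 3 erythroid markers were lower, with the largest median shift of the lists (-1.27), as were 2 of 4 NK markers (median -0.53) and the B cell marker measured (-0.70), while 0 of 6 platelet (median -0.24) and 0 of 5 granulocyte markers (median -0.11) passed. The part of erythroid, NK and B cells in the member differences was not tested. The monocyte list mean was 8.88 ± 0.25 (SD, n = 10; range 8.57 to 9.36) at time 0 and 9.30 ± 0.16 (SD, n = 4; range 9.12 to 9.49) on the control chow. With the balance of the monocyte and T cell list means added to the fit for each array, ABCA1 still differed by 1.30 (adjusted p = 0.0121), while LIPA fell to 0.12 (adjusted p = 0.561) and APOE to 0.28 (adjusted p = 0.368), so that of the 3 genes called, ABCA1 kept its call in that fit. NR1H3 then passed as lower, at -0.51 (adjusted p = 0.0231). The balance ranged from -1.94 to -0.77 at time 0 and from -0.62 to -0.24 on the control chow. These ranges did not overlap, so the fit compares the groups by extrapolation, and calls kept or lost in it cannot separate time from cell balance.

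The same time 0 arrays also serve for the other diets, in comparisons added after the values were seen. On high-fat chow 3 of 11 member probe sets passed (32.9% of all probe sets did), and with resveratrol 2 of 11 did (35.1%). ABCA1 was 1.01 higher with resveratrol (SE 0.26, adjusted p = 0.00531) and 0.67 higher on high-fat chow alone (SE 0.26, adjusted p = 0.0541), the latter short of the threshold here and past it with 8 means, array weights, median centring or repeated quantile normalisation (adjusted p from 0.0381 to 0.0397). NR1H3 was lower on high-fat chow by -0.62 (SE 0.16, adjusted p = 0.00516), and with resveratrol it differed by -0.40 (adjusted p = 0.0553). Whether NR1H3 stood lower on high-fat than on control chow is the diet contrast given further on, which did not pass. With the monocyte and T cell balance in the fit, NR1H3 was lower than at time 0 by -0.80 on high-fat chow (adjusted p = 8.59e-05) and by -0.70 with resveratrol (adjusted p = 0.000617).

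LPCAT3 was lower on high-fat chow than at time 0. It ranged from 8.25 through 8.38 to 8.48 at time 0 and was 8.14, 8.03, 8.16 and 7.95 in pigs 27, 30, 23 and 26. All 4 lay below every time 0 array, as held for 8.51% of probe sets, and the difference was -0.30 (SE 0.10, adjusted p = 0.0228). It did not pass without female 30 (adjusted p = 0.0585) or without male 26 (adjusted p = 0.0975), nor with the arrays centred on their medians (-0.25, adjusted p = 0.0659) or quantile-normalised again (-0.25, adjusted p = 0.0795). The second LIPA probe set was -0.67 with resveratrol (adjusted p = 0.0156), and without female 22 its adjusted p was 0.0567. The brightest LIPA probe set went the other way there, at 0.23 (adjusted p = 0.168). On high-fat chow the brightest LIPA probe set was at 0.23 and the second at -0.46, neither passing. The second APOE probe set was 0.24 higher on high-fat chow (adjusted p = 0.0423) and lost that call when any 1 of time 0 pigs 8, 17, 20, 11, 15 and 24 or high-fat pigs 27, 30 and 26 was left out (adjusted p from 0.0544 to 0.169). With a term for the spike-in sets within each time, 0 of the 3 calls for high-fat chow held: NR1H3 was -0.45 (adjusted p = 0.140), LPCAT3 -0.25 (adjusted p = 0.199) and the second APOE probe set 0.32 (adjusted p = 0.0626). This term leaves the difference between the sets of the 2 times in place.

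The next contrast was high-fat against control chow at 9 months. NR1H3 and LPCAT3 had negative differences with an unadjusted p below 0.05, and none passed after adjustment: 0 of 11 member probe sets and 0 of all 17240 did, a background of 0%, with limma. At an unadjusted p below 0.05, 2 of 11 differed, both lower, against 9.06% of all probe sets in either direction and 5.17% lower. The differences were negative for 10 of 11 against 51.2% of all probe sets, with a median of -0.22 against -0.0045. Groups did not overlap for 0 of 11, against 2.97% of probe sets lower and 2.08% higher.

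NR1H3 was 7.14, 7.69, 7.81 and 7.65 in control pigs 8, 18, 16 and 25, and 6.67, 6.88, 7.41 and 7.03 in high-fat pigs 27, 30, 23 and 26. High-fat pigs 27, 30 and 26 lay below every control pig, and male 23 lay above control female 8. The difference was -0.58 (SE 0.19, 95% confidence interval -0.97 to -0.18), with an unadjusted p of 0.00630 and an adjusted p of 0.352.

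ABCA1 was 8.48, 8.46, 9.11 and 8.47 in the same high-fat pigs, against 8.99 to 9.84 on the control chow. Male 23 stood apart from the other 3, inside the control range. The difference was -0.63 (SE 0.31, 95% confidence interval -1.28 to 0.02, adjusted p = 0.568). LPCAT3 differed by -0.26 (SE 0.12, unadjusted p = 0.0405, adjusted p = 0.523) and APOE by -0.33 (SE 0.21, adjusted p = 0.707). Control male 16 stood highest for both, at 8.80 for LPCAT3 and 8.48 for APOE. Without it the differences were -0.10 for LPCAT3 and -0.10 for APOE. The second probe sets differed by -0.22 for LPCAT3 and 0.02 for APOE. The lysosomal genes LIPA and NPC2 differed by -0.22 (SE 0.15) and -0.21 (SE 0.16), neither passing.

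All 13 monocyte markers were also negative in this contrast (median -0.38, 0 passing), and the monocyte list mean was 8.84 ± 0.24 (SD, n = 4; range 8.60 to 9.14) on high-fat chow. With the monocyte and T cell balance in the fit, NR1H3 was -0.29 (adjusted p = 0.427) and LPCAT3 -0.24 (adjusted p = 0.449). The balance ranged from -1.43 to -0.69 on high-fat chow, below the control range of -0.62 to -0.24, so this fit extrapolates too. Spike-in set C held the control females, and set D the high-fat ones. NR1H3 was -0.42 within set C and -0.62 within set D, but each value rests on 1 pig in an arm, high-fat male 23 in set C and control male 25 in set D.

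**Figure D2:**
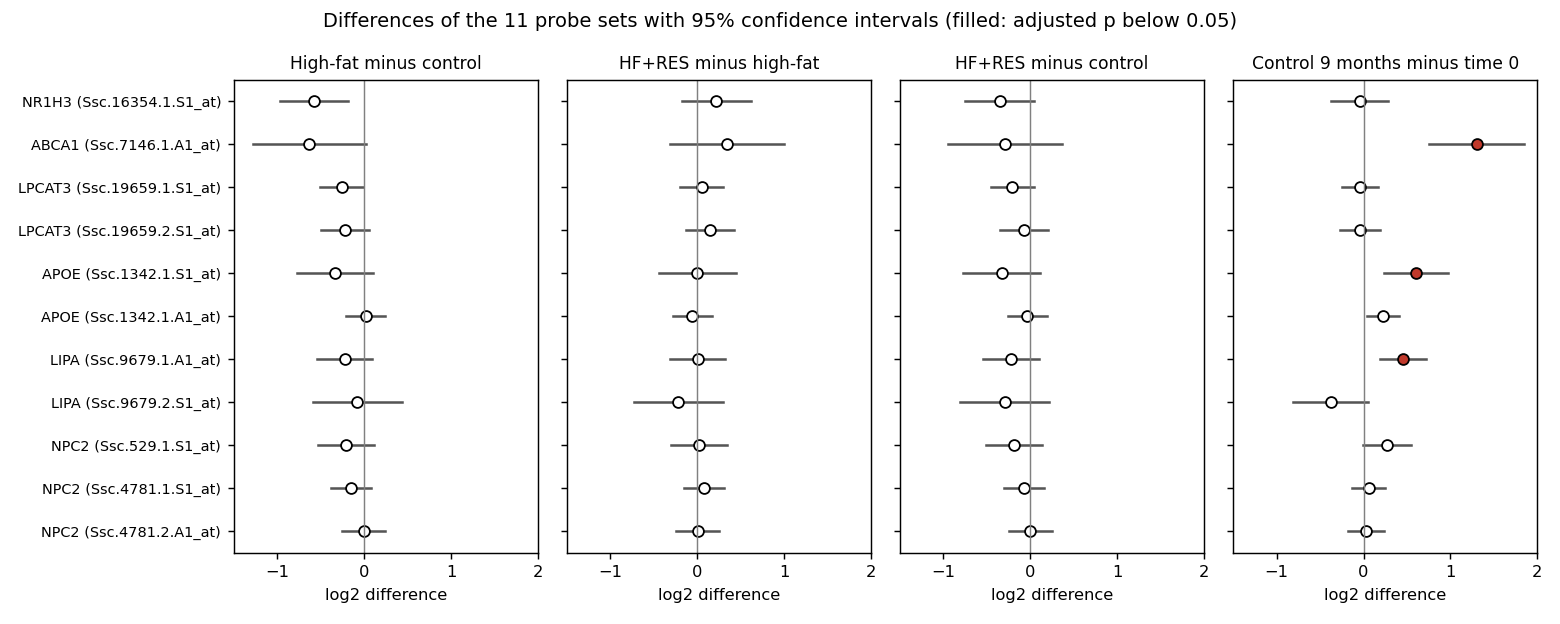
Log2 difference (horizontal axis) of each of the 11 member probe sets (vertical axis) in 4 comparisons, with 95% confidence intervals as lines; filled points passed an adjusted p of 0.05. The points that pass are ABCA1, 1 APOE and 1 LIPA probe set, for control chow at 9 months against time 0.

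Adding resveratrol to the high-fat chow gave small differences. No member passed (0 of 11, background 0%), and 0 of 11 had an unadjusted p below 0.05, against 6.63% of all probe sets. ABCA1 was 8.76, 9.44, 8.57 and 9.10 in pigs 21, 22, 4 and 5, with female 22 above the high-fat range and the others inside it. Its difference was 0.34 (95% confidence interval -0.31 to 1.00). NR1H3 was 7.02, 6.99, 7.39 and 7.47 in these pigs, a difference of 0.22 (95% confidence interval -0.17 to 0.61). The intervals allow differences of either sign for all 11 probe sets, so a similar level in both groups was not shown either.

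Against the control chow, which shares its arrays with the high-fat contrast, the resveratrol group gave no member difference past the threshold. The differences were negative for 11 of 11 probe sets, which belong to 6 genes and include 1 NPC2 probe set at -0.00015, against 48.2% of all, with a median of -0.21 against 0.0056. None passed (0 of 11, background 0%), and 0 of 11 had an unadjusted p below 0.05, against 3.85%. NR1H3 differed by -0.36 (95% confidence interval -0.75 to 0.04), APOE by -0.33 (-0.77 to 0.11) and ABCA1 by -0.29 (-0.94 to 0.36).

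Sex was compared within each time. At time 0, 0 of 11 member probe sets passed (1.07% of all did), and 2 of 11 had an unadjusted p below 0.05, against 16.4%. NR1H3 was 7.43, 7.84, 7.75, 8.07 and 7.89 in females 6, 8, 10, 17 and 20, and 7.39, 7.27, 7.52, 7.68 and 7.33 in males 11, 12, 15, 24 and 25. Only female 6 lay below the highest male. The female minus male difference was 0.36 (SE 0.12, unadjusted p = 0.0101, adjusted p = 0.160).

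ABCA1 was 7.34, 7.87, 7.15, 8.62 and 7.10 in the same females and 7.91, 8.65, 8.16, 8.56 and 8.17 in the males. Female 17 lay among the males and the other 4 females below them all. The difference was -0.67 (SE 0.26, unadjusted p = 0.0195, adjusted p = 0.211), and -0.92 (adjusted p = 0.0408) without female 17. Females 6 and 10 made up spike-in set A. Without both, ABCA1 differed by -0.42 and NR1H3 by 0.50.

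At 9 months the brightest probe sets of the lysosomal genes and NR1H3 were lower in females. Over the 3 diets 3 of 11 member probe sets passed, all lower, where 6.01% of all probe sets passed and 2.94% were lower. NPC2 was 0.722 times the male level, LIPA 0.718 times and NR1H3 0.761 times.

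NPC2 ranged from 10.53 through a median of 10.77 to 11.02 in the 6 females and from 10.97 through 11.25 to 11.43 in the 6 males, a difference of -0.47 (SE 0.09, adjusted p = 0.00641). The ranges met at control female 18 (11.02) and high-fat male 23 (10.97), and groups did not overlap for 0 of 11 members, against 0.458% of probe sets lower. LIPA ranged from 11.14 through 11.58 to 11.97 in females and from 11.93 through 12.09 to 12.23 in males, which put females lower by -0.48 (SE 0.11, adjusted p = 0.0181). Female 8 was the only female within the male range.

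NR1H3 ranged from 6.67 through 7.01 to 7.69 in females and from 7.03 through 7.44 to 7.81 in males, and females were lower by -0.39 (SE 0.11, adjusted p = 0.0485). Females 8 and 18 lay within the male range, and females 21, 22, 27 and 30 lay below every male. The other 2 NPC2 probe sets differed by -0.03 and 0.00, and the second LIPA probe set by -0.35 (adjusted p = 0.361). With the mean of a gene's probe sets neither lysosomal gene passed, at -0.17 for NPC2 (adjusted p = 0.0977) and -0.41 for LIPA (adjusted p = 0.0942). ABCA1 differed by 0.09 (SE 0.24), LPCAT3 by -0.09 and APOE by -0.19, none passing.

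The sexes were also compared within each diet, 2 females against 2 males, in comparisons added after the values were seen. By their brightest probe sets, the differences of NPC2 and LIPA were widest with resveratrol, where 2 of 11 passed (9.98% of all probe sets). That of NR1H3 was -0.32 on control, -0.44 on high-fat and -0.42 on resveratrol chow, none passing. NPC2 was 10.53 and 10.58 in females 21 and 22 and 11.38 and 11.28 in males 4 and 5, a difference of -0.77 (adjusted p = 0.00694). LIPA was 11.14 and 11.57 against 12.23 and 12.07, a difference of -0.80 (adjusted p = 0.0164). With resveratrol the other NPC2 probe sets had positive differences, 0.14 and 0.09, and the second LIPA probe set was at -0.62, none passing. On the control and high-fat chows 0 of 11 passed (0.0928% in each), with NPC2 at -0.39 and -0.24 and LIPA at -0.28 and -0.36. For the brightest probe set of both genes, each male exceeded each female of its diet on all 3 diets. This order was seen for 12.9%, 23.8% and 26.4% of all probe sets on the control, high-fat and resveratrol chows. The dimmest NPC2 probe set had the opposite order on high-fat chow, each female above each male, as held for 24.3% of all probe sets. Whether the diet effects differed by sex was tested directly. For the high-fat effect 0 of 11 members passed (0.0058% of all), with 2 of 11 at an unadjusted p below 0.05 against 11.7%, and for the resveratrol effect 0 of 11 (0.0116% of all), with 1 of 11 against 5.85%.

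**Figure D3:**
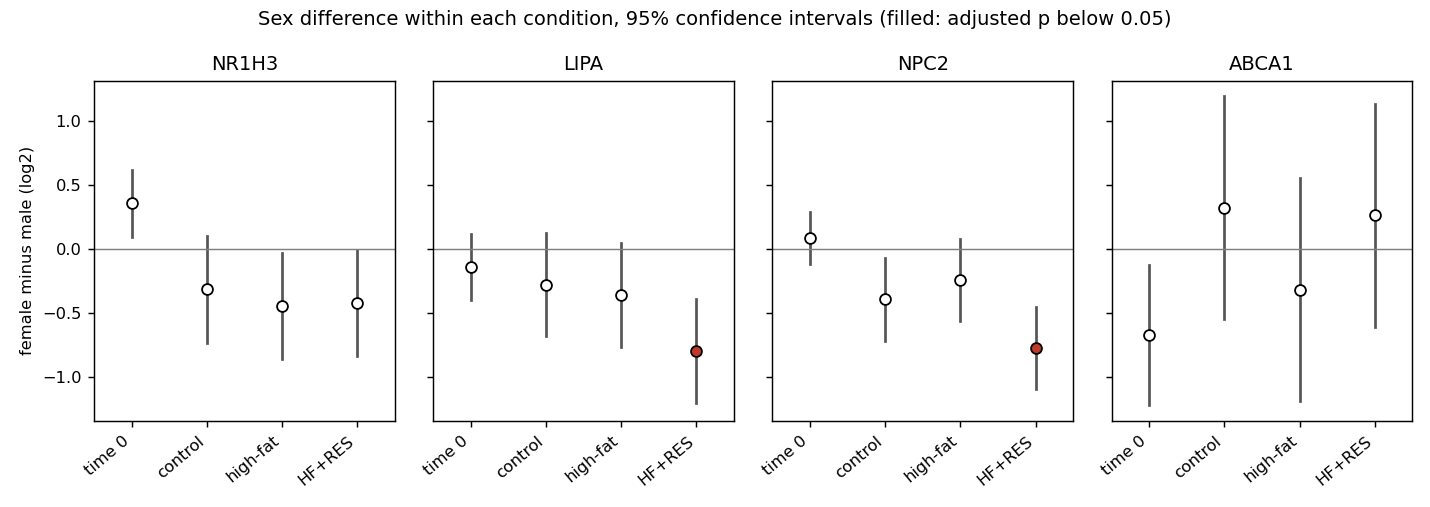
Female minus male log2 difference (vertical axis) for NR1H3, LIPA, NPC2 and ABCA1 at time 0 and on each diet at 9 months (horizontal axis; HF+RES is high-fat plus resveratrol), with 95% confidence intervals; filled points passed an adjusted p of 0.05. NR1H3 lies at 0.36 at time 0 and between -0.32 and -0.44 on the diets.

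Monocyte markers differed between the sexes at 9 months too. Of 13 measured, 6 were lower in females and 0 higher (median -0.53). Other lists moved as well: 2 of 3 erythroid markers were lower (median -1.66), as were 2 of 5 granulocyte (median -0.71) and 1 of 6 platelet markers (median -0.60), while 1 of 11 T cell markers (median 0.21) and the B cell marker measured (0.97) were higher and 0 of 4 NK markers passed (median 0.13). The part of these lists, T cells aside, in the member differences was not tested. The monocyte list mean was 8.81 ± 0.33 (SD, n = 6; range 8.47 to 9.33) in females and 9.29 ± 0.23 (SD, n = 6; range 8.91 to 9.51) in males. With the monocyte and T cell balance in the fit, 0 of 11 members passed. NPC2 was then -0.32 (adjusted p = 0.538), LIPA -0.30 (adjusted p = 0.668) and NR1H3 -0.12 (adjusted p = 0.891), and over all probe sets 19 passed in place of 1036. Within spike-in set C the differences were -0.52 for NPC2, -0.43 for LIPA and -0.42 for NR1H3, and within set D -0.31, -0.36 and -0.25, with 0 of 11 passing in either set. The NR1H3 call held when time 0 female 6 or 17, time 0 male 24, control female 18 or high-fat male 26 was left out and was lost without any 1 of the other 17 arrays (adjusted p from 0.0512 to 0.171 over those), and the LIPA call did not hold without high-fat female 27, high-fat male 23, resveratrol female 21 or resveratrol male 4 (adjusted p from 0.0524 to 0.0680).

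The sex difference itself was compared between the times, in a test added after the values were seen. It moved towards lower female values for NR1H3, from 0.36 to -0.39, a change of -0.75 (SE 0.17, adjusted p = 0.0145), and for NPC2, from 0.09 to -0.47, a change of -0.56 (SE 0.13, adjusted p = 0.0182). With the mean of its probe sets, NPC2 changed by -0.24 (adjusted p = 0.110). These were 2 of 11 members, where 7.34% of all probe sets passed and 3.89% in this direction. ABCA1 changed the other way, by 0.76 (SE 0.35, adjusted p = 0.205), without passing, and by 1.01 (adjusted p = 0.0453) without female 17 of time 0. With the monocyte and T cell balance in the fit, NR1H3 was -0.39 (adjusted p = 0.425) and NPC2 -0.35 (adjusted p = 0.379).

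At 9 months NR1H3, LIPA and NPC2 correlated with the monocyte markers over all arrays. At time 0 APOE did so by both r and rho, and NR1H3 and NPC2 by r alone. Relations among the 6 genes and with the monocyte list mean were computed at each time, 42 in all, with permutation tests and Benjamini-Hochberg adjustment. By r, 11 passed, 5 at time 0 and 6 at 9 months. Of the gene pairs, NR1H3 with APOE at time 0 (r = 0.79, adjusted p = 0.0342) passed by r and not by rho. So did NR1H3 with NPC2 (r = 0.71, adjusted p = 0.0472) and LPCAT3 with APOE (r = 0.83, adjusted p = 0.0342) at 9 months, the latter at 0.17 without the 2 farthest arrays. Over the 12 arrays of 9 months the monocyte list mean correlated with LIPA at r = 0.86 (permutation p = 0.00035, adjusted p = 0.00735; rho = 0.80, adjusted p = 0.0250), with NR1H3 at r = 0.85 (permutation p = 0.00081, adjusted p = 0.00851; rho = 0.84, adjusted p = 0.0250) and with NPC2 at r = 0.83 (permutation p = 0.00129, adjusted p = 0.0108; rho = 0.81, adjusted p = 0.0250). Without the 2 arrays farthest from the median these were 0.79, 0.87 and 0.82, and within spike-in set C (7 arrays) 0.77, 0.81 and 0.94.

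The relation was not the same inside the groups. After the 6 group means of 9 months were subtracted, r with the monocyte list mean was 0.67 for NR1H3, -0.01 for LIPA and -0.39 for NPC2, so for LIPA and NPC2 the relation was not seen within the groups. LIPA and NPC2 likewise correlated with each other at r = 0.88 (permutation p = 0.00015, adjusted p = 0.0063; rho = 0.90, adjusted p = 0.0084) over the 12 arrays, 0.86 within set C and 0.00 after group means. ABCA1 gave r = 0.28 with the monocyte list mean (permutation p = 0.379, adjusted p = 0.531) and rho = 0.32 (adjusted p = 0.463), with r = 0.26 after group means.

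Over the 10 time 0 arrays APOE and NPC2 correlated at r = 0.89 (permutation p = 0.00067, adjusted p = 0.00851; rho = 0.83, adjusted p = 0.0282), at 0.78 without the 2 farthest arrays, 0.88 within spike-in set B (8 arrays) and 0.88 after group means. The relation of the monocyte list mean to LIPA did not pass at time 0 (r = 0.40, permutation p = 0.245, adjusted p = 0.412; rho = 0.54, adjusted p = 0.263). Its relation to NR1H3 (r = 0.76, permutation p = 0.00986, adjusted p = 0.0414; rho = 0.70, adjusted p = 0.119) and to NPC2 (r = 0.79, permutation p = 0.00636, adjusted p = 0.0342; rho = 0.64, adjusted p = 0.178) passed by r and not by rho. The monocyte list mean correlated with APOE at r = 0.82 (permutation p = 0.00413, adjusted p = 0.0289; rho = 0.84, adjusted p = 0.0272), 0.80 without the 2 farthest arrays and 0.81 within set B. ABCA1 gave r = 0.26 with the monocyte list mean at time 0 (permutation p = 0.473, adjusted p = 0.609) and rho = 0.10 (adjusted p = 0.882). After group means of time 0, r with the monocyte list mean was 0.79 for NR1H3, 0.61 for ABCA1, 0.77 for LPCAT3, 0.79 for APOE, 0.57 for LIPA and 0.78 for NPC2. LIPA and NPC2 correlated at time 0 at r = 0.71 (permutation p = 0.0360, adjusted p = 0.101) and rho = 0.87 (adjusted p = 0.0250), passing by rho and not by r, and at 0.88 after group means.

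**Figure D4:**
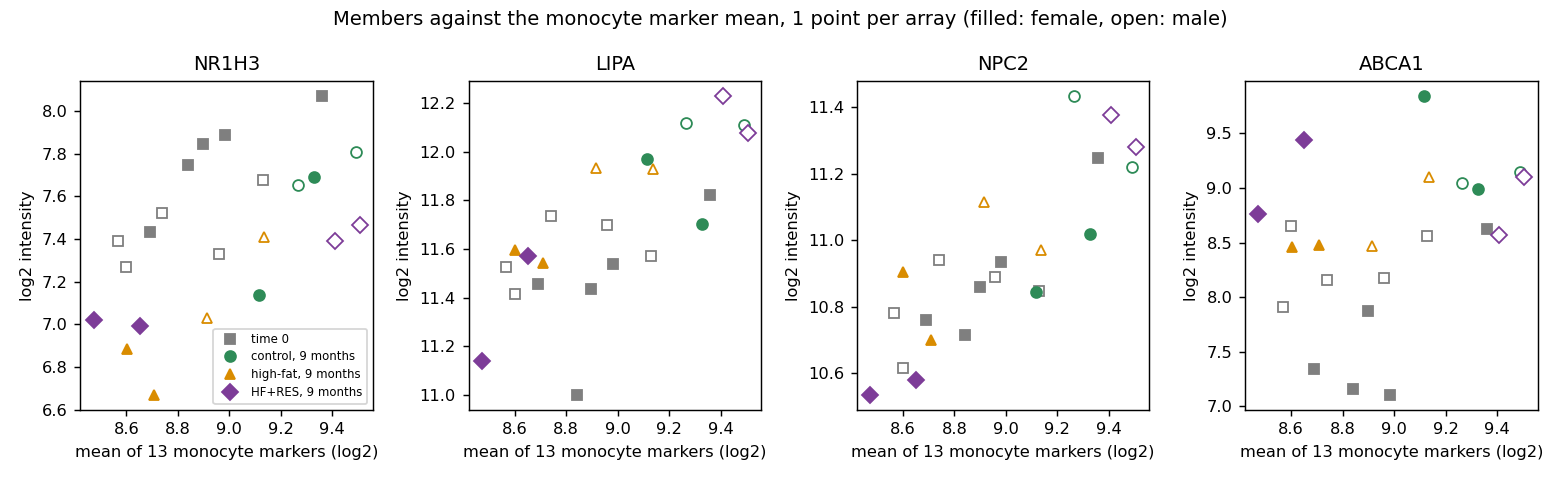
Log2 intensity of NR1H3, LIPA, NPC2 and ABCA1 (vertical axis, a separate scale in each panel) against the mean log2 value of 13 monocyte markers (horizontal axis), 1 point per array; colour and shape give the condition, filled points are females and open points males. At 9 months the males lie mostly to the right, and ABCA1 shows little slope (r = 0.28 over 12 arrays).

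Genes whose pattern was most like each member were sought among 8426 tested probe sets with a single symbol, by Pearson's r over the 22 arrays after the 8 group means were subtracted. NR1H3 was closest to FTH1, the ferritin heavy chain (r = 0.92), then ADIPOR1 (0.88) and XPO7 (0.87). ABCA1 was closest to the interleukin-1 receptor IL1R1 (0.80), the monocyte scavenger receptor CD163 (0.78), which is in the monocyte list, and RND3 (0.78). LPCAT3 was closest to the late endosomal GTPase RAB7A (0.80), SMAP2 (0.79) and ALAS2 (0.76), an enzyme of haem synthesis in erythroid cells. APOE was closest to DMBT1 (0.84), FOXO3 (0.82) and FOLR1 (0.82). LIPA was closest to BTG1 (0.87), RBPJ (0.86) and MITF (0.86), a transcription factor of the family that regulates lysosomal genes. NPC2 was closest to IPO11 (0.86), TSC22D3 (0.85) and TMEM2 (0.82). All arrays of a group share their condition and pig sex, though not always their spike-in set, and these values are descriptions.

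A wider list of 51 genes of the liver X receptor and lysosomal cholesterol route had 31 genes with a probe set and 24 tested. In the 3 diet comparisons 0 of 24 passed. Those with the smallest unadjusted p for high-fat against control chow were SCARB2, an integral protein of the lysosomal membrane (-0.68, adjusted p = 0.337), STARD3, a cholesterol carrier of late endosomes (-0.34, adjusted p = 0.385), and RXRB, a partner of the liver X receptors (-0.31, adjusted p = 0.471). For resveratrol against high-fat chow they were SCD (-0.40), MYLIP (-0.37) and LPL (-0.23), with adjusted p from 0.728 to 0.753, and for resveratrol against control chow SCD (-0.45), LAMP1 (-0.25) and SCARB2 (-0.44), each with an adjusted p of 0.9998. On control chow at 9 months against time 0, 4 of the 24 were higher and 3 lower, against 15.8% and 19.1% of all probe sets, a count near that background. SCARB2 rose by 1.07 (SE 0.18, adjusted p = 0.000160), and the lysosomal membrane protein LAMP1 rose by 0.46 (adjusted p = 0.000758). The desaturase SCD, a known liver X receptor target, rose by 0.63 (adjusted p = 0.00112) and CH25H, which makes 25-hydroxycholesterol, by 0.24 (adjusted p = 0.0445). The coactivator NCOA1 (-0.30), the acyltransferase LPCAT2 (-0.56) and the lipid-sensing receptor PPARD (-0.34) fell.

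Between the sexes at 9 months, 3 of the 24 were lower in females and 1 higher, against 2.94% and 3.07% of all probe sets. SCARB2 (-0.56, adjusted p = 0.00798), LAMP1 (-0.31, adjusted p = 0.0306) and LAMP2 (-0.30, adjusted p = 0.0406), all of the lysosomal membrane, were lower, and PPARD was 0.32 higher (adjusted p = 0.0488). The monocyte list mean moved in the same direction as the lysosomal genes in both of these comparisons, as given above, and its part in these differences of the wider list was not tested. At time 0, 0 of 24 differed between the sexes, with MYLIP, which targets the LDL receptor for breakdown, closest at -0.47 (adjusted p = 0.0575), then SCARB2 at 0.38 (adjusted p = 0.125) and LPCAT2 at 0.29 (adjusted p = 0.229). The change of the sex difference between the times passed for SCARB2 (-0.94, adjusted p = 0.00439), LPCAT2 (-0.53, adjusted p = 0.0485) and MYLIP (0.63, adjusted p = 0.0236), 2 lower and 1 higher of the 24, against 3.89% and 3.45% of all probe sets.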

How the data were processed

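RNA from 22 blood samples was hybridised to Affymetrix porcine arrays, 1 array per sample. The authors deposited linear RMA intensity values (RMA, GCOS and Affymetrix Expression Console 1.1, per the submitters' processing notes). A floor of 1 was set, log2 taken and 124 control probe sets left out. Probe sets above log2 5 on at least 2 arrays were tested (17240, or 71.8%). Symbols came from the array annotation, and 11 of 11 member probe sets matched a Sscrofa11.1 gene table used for names alone.

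Models were fitted across all tested probe sets with limma 3.58.1 in R 4.3.3, with empirical Bayes variance and Benjamini-Hochberg adjustment. Diets and times were compared with an additive sex term over all 22 arrays, and the sexes with 8 means of condition and sex. Fits were tested on simulated data. Alternatives were other designs, fewer arrays, array weights, trend and robust priors, no filter, further normalisation, spike-in sets, a monocyte minus T cell balance, the mean of a gene's probe sets, a replicate block for pig (statmod 1.5.0) and each array left out.

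The members and the gene lists were chosen with earlier results of these data known. The genes named were all 6 members, the 3 closest in pattern to each, and, per comparison, the members of the wider list that passed or else those with the smallest p. Pigs 8 and 25 are paired by their labels, and the deviations of their 2 arrays correlated at r = -0.06 and r = 0.20. The promoter motif search was not run, as promoter sequences were not used here. The number of arrays limits the precision. The p-values of the fits judge differences against the spread between arrays. With 1 array per sample, animal and technical variation are mixed in that spread. The main fits treat the arrays of pigs 8 and 25 as independent.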

Additional observations from a re-analysis of the deposited data

Results flagged for a closer look

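Of 66 groups of 4 to 10 arrays tested for a sample far from the others, 5 held one, where about 1 in 20 groups does so by chance. In the high-fat group, ABCA1 was 9.11 in pig 23, above the other 3 pigs, and APOE was 7.04 in pig 26, away from the other 3. At time 0, LIPA was lowest in pig 10 at 11.00 and the brightest NPC2 probe set was highest in pig 17 at 11.25. The dimmest NPC2 probe set was 5.46 in female 20, apart from the other 4 time 0 females. The female minus male difference changed between time 0 and 9 months for NR1H3, by -0.75 (limma, adjusted p = 0.0145), and for NPC2, by -0.56 (adjusted p = 0.0182). No cause of these values was tested.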

How the results depend on the processing

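Among the comparisons refitted, no called member difference changed sign under any alternative. The sex differences within single diets, with the calls for NPC2 and LIPA on resveratrol chow, were not refitted. The 3 diet comparisons at 9 months and both tests of diet by sex kept 0 members passing in all alternatives, out of 11 probe sets, or 6 genes with the mean of probe sets. Other counts of members passing moved, and the cause was not tested. Control chow against time 0 went from 3 to 5 with array weights and ranged from 2 to 4 with 1 array left out. The sexes at 9 months went from 3 to 0 with an additive sex term, 0 within spike-in set C, 0 within set D, 0 with the monocyte and T cell balance and 1 with the mean of a gene's probe sets, and ranged from 1 to 3 with 1 array left out. The additive term averages over both times, so 5 of the 11 arrays per sex are then of time 0. NR1H3 also missed the threshold in 3 other fits (9-month arrays alone 0.0767, no filter 0.0594, spike-in set block 0.0523). The change of the sex difference went from 2 to 0 with the balance and 1 with the probe set mean, and ranged from 2 to 3 with 1 array left out. High-fat chow against time 0 went from 3 to 6 with array weights and 0 with a spike-in set block, and ranged from 1 to 4 with 1 array left out. Resveratrol against time 0 went from 2 to 4 with 8 means and 4 with array weights, and ranged from 2 to 4 with 1 array left out. The sexes at time 0 went from 0 to 1 without female 17 alone.

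Over all probe sets, 0 passed for high-fat against control chow, against 18 with 8 means, 1 with the 9-month arrays alone, 68 with array weights and 25 within set C. Resveratrol against high-fat chow went from 0 to 1 with 8 means and 29 within set C, and resveratrol against control chow from 0 to 1 with 8 means or the 9-month arrays alone. The sexes at time 0 went from 184 to 47 with the additive term, 43 with the time 0 arrays alone, 25 with the spike-in set block, 22 within set B and 28 without the arrays of set A. The sexes at 9 months went from 1036 to 47 with the additive term, 19 with the balance, and 14 and 9 within sets C and D. The change of the sex difference went from 1265 to 597 with the spike-in set block, 10 with the balance and 816 without set A, the resveratrol effect by sex from 2 to 1 in 3 fits, and high-fat chow against time 0 from 5669 to 3654 with the spike-in set block. Leaving out set A was chosen after seeing the data. Set C holds 1 high-fat array, so its counts of 25 and 29 come from an arm of 1 pig assumed to vary like the others.

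With pig number as a replicate block the counts were 3, 3, 2, 3 and 2 for control chow against time 0, the sexes at 9 months, the change of the sex difference, and high-fat and resveratrol chow against time 0, and 0 in the other comparisons refitted, as without the block.

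Calls were also gained when 1 array was left out. ABCA1 passed on high-fat chow against time 0 without time 0 pig 17, 12 or 24, control pig 8 or resveratrol pig 22 or 4 (adjusted p from 0.0226 to 0.0499). NR1H3 passed with resveratrol against time 0 without time 0 pig 11, 12 or 25, control pig 8, high-fat pig 23 or resveratrol pig 5 (0.0328 to 0.0460), and LPCAT3 without time 0 pig 12, control pig 8 or 16 or resveratrol pig 22 (0.0107 to 0.0430). In that comparison the brightest LIPA probe set passed as higher without resveratrol pig 21 (0.0235), opposite in direction to the second LIPA probe set. The second LPCAT3 probe set passed on high-fat chow against time 0 without time 0 pig 6 or control pig 16 (0.0289 and 0.0453). On control chow against time 0, the second APOE probe set passed without time 0 pig 6, 12 or 25 or control pig 25 (0.0201 to 0.0495), the second LIPA probe set, as lower, without control pig 8 (0.0332) and NPC2 without time 0 pig 17 (0.0312).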
